A study of Mus musculus with 2 samples.

Results

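The genes of fatty acid oxidation were followed on 2 microarrays, one of brown adipose tissue (BAT), which burns fat to make heat, and one of brown adipocytes grown in culture. They are 22 genes of the mitochondrial pathway and 26 of the peroxisome, of which 13 are enzymes or transporters and 13 are peroxins, the proteins that build the organelle. The enzymes and transporters were taken by name from the array's annotation, with older names allowed (Dci for Eci1, Peci for Eci2, Hadhsc for Hadh). A peroxin was counted where the annotation gave Pex followed by a number alone. That made 48 genes with 71 probes, out of 19500 named genes on the array. Acot1, which is cytosolic, and Peci and Crat, which are found in peroxisomes too, were kept in the mitochondrial group, and Ech1, also mitochondrial, in the peroxisomal group.

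On both arrays a PKGI-/- mouse (KO), which lacks the kinase PKGI, the product of Prkg1 that cGMP switches on, was set against a wild type littermate (WT), all on the C57BL/6N background. On the BAT array Cy5 marked the KO sample and Cy3 the WT sample of untreated tissue. On the other array, cells differentiated in vitro from brown fat precursors of a KO mouse carried Cy3 and those of a WT littermate Cy5. Further animals were measured by quantitative PCR only, and those values are not used here. The labels give no age or sex, do not say how PKGI was removed, and give no further treatment of the cultures. With 1 array per comparison and no dye swap there is no test, no p-value and no spread between animals, and a dye effect on a single gene and an effect of genotype cannot be told apart.

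Mitochondria shorten fatty acids in a repeating spiral. The acid is first joined to coenzyme A and carried inward as a carnitine ester, then dehydrogenated, hydrated, dehydrogenated again and cut by a thiolase, and electrons leave through the flavoprotein ETF and through NADH. Peroxisomes run a parallel spiral on very long and branched chains, beginning with an oxidase that makes hydrogen peroxide, and pass the shortened acids on. In brown fat this oxidation supplies the electrons whose energy UCP1 releases as heat.

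Signals below are normalized channel intensities in arbitrary units, and ratios are log2 of KO over WT after loess, which balances the dyes at each brightness. Prkg1 itself had signals of 106 in KO and 189 in WT tissue, and of 117 in KO and 239 in WT adipocytes, as the mean over 3 probes. The probes disagreed, with log2 ratios from -1.29 to 0.01 in BAT and from -2.31 to 0.17 in adipocytes. The sources used here do not say where the deletion lies, so these probes are a weak check of the labels. On the BAT array 74.1% of gene spots were well above background for KO and 63.1% for WT, and on the adipocyte array 68.1% for KO and 70.1% for WT. Repeated spots of a probe differed by a pooled SD of 0.098 (BAT) and 0.090 (adipocytes) on the log2 scale, which covers spotting and scanning only. The tissue samples also differed in sex-linked transcripts. Xist, which silences an X chromosome in female cells, had a signal of 3495 in KO and 164 in WT tissue, and the Y-linked Eif2s3y 80.7 in KO, not well above background, and 6831 in WT, so sex and genotype cannot be told apart on that array. In culture Eif2s3y had 4961 in KO and 5380 in WT, and Xist 103 in KO and 1057 in WT. The 4 probes of Xist there had log2 ratios from -5.26 to -1.53, so sex makeup and genotype cannot be told apart in culture either. Of 19 skeletal muscle markers measured in BAT all were at least 2-fold lower in KO, against 2.42% of all genes. Their summed signal was 91799 in KO and 499155 in WT. In culture 9 of 11 brown adipocyte markers (81.8%, against 4.17% of all genes) were at least 2-fold lower in KO. Their summed signal was 7273 in KO and 182676 in WT. Of 11 macrophage markers 9 (81.8%) were as well, with 35296 in KO and 183440 in WT. 

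All 48 genes were well above background in both channels of both arrays. In KO adipocytes the mitochondrial genes were lower as a group, with a median log2 ratio of KO over WT of -0.74 over 22 genes, while the 15069 genes measured there had a median of 0.00. In BAT the median of the same 22 genes was -0.19, with 15562 genes measured and a median of 0.00, and this small difference turned to 0.46 when loess was left out, as did the median of all genes, to 0.25. The peroxisomal genes had a median of -0.42 in adipocytes and of -0.07 in BAT, the last turning to 0.38 without loess. In these RNA samples, fewer cells of a type and less RNA per cell cannot be told apart.

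Differences were counted at 2-fold and at 1.5-fold. In adipocytes 7 of the 48 genes (14.6%) were at least 2-fold lower in KO, against 4.17% of all genes measured, and 1 was at least 2-fold higher, against 2.5% of all. At 1.5-fold 21 of 48 (43.8%) were lower, against 9.58% of all genes, and 1 was higher, against 8.46%. In BAT 2 of 48 (4.17%) were at least 2-fold lower, against 2.42% of all genes, and none was higher, against 0.816%. At 1.5-fold 5 of 48 (10.4%) were lower in BAT, against 7.11%, and 2 (4.17%) were higher, against 3.65%. The share of higher genes among all those past 2-fold depended on the scaling. It was 25.2% in BAT, 59.5% with the log ratios of the scanner software and 62.3% without loess, and in adipocytes 37.4%, 47.7% and 13.4%.

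By gene, 39 of 48 were below 0 in adipocytes, against 7592 of all 15069 genes measured. Of the 39, 37 stayed below 0 under all 9 processing alternatives. The 9 are not independent checks. The software's log ratio and the deposited table hold nearly the same values, and several others leave a gene with a single bright probe unchanged. In BAT 33 of 48 were below 0, against 7690 of all 15562 genes measured. Only 4 of the 33 (Acsl5, Acads, Decr1 and Abcd3) stayed below under all 9. Of the 15 above 0 in BAT, 10 stayed above under all 9. In all, 29 of the 48 took the opposite sign in BAT when loess was left out. The values for single genes in BAT below are therefore small against the choice of scaling, unless stated otherwise.

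**Figure D1:**
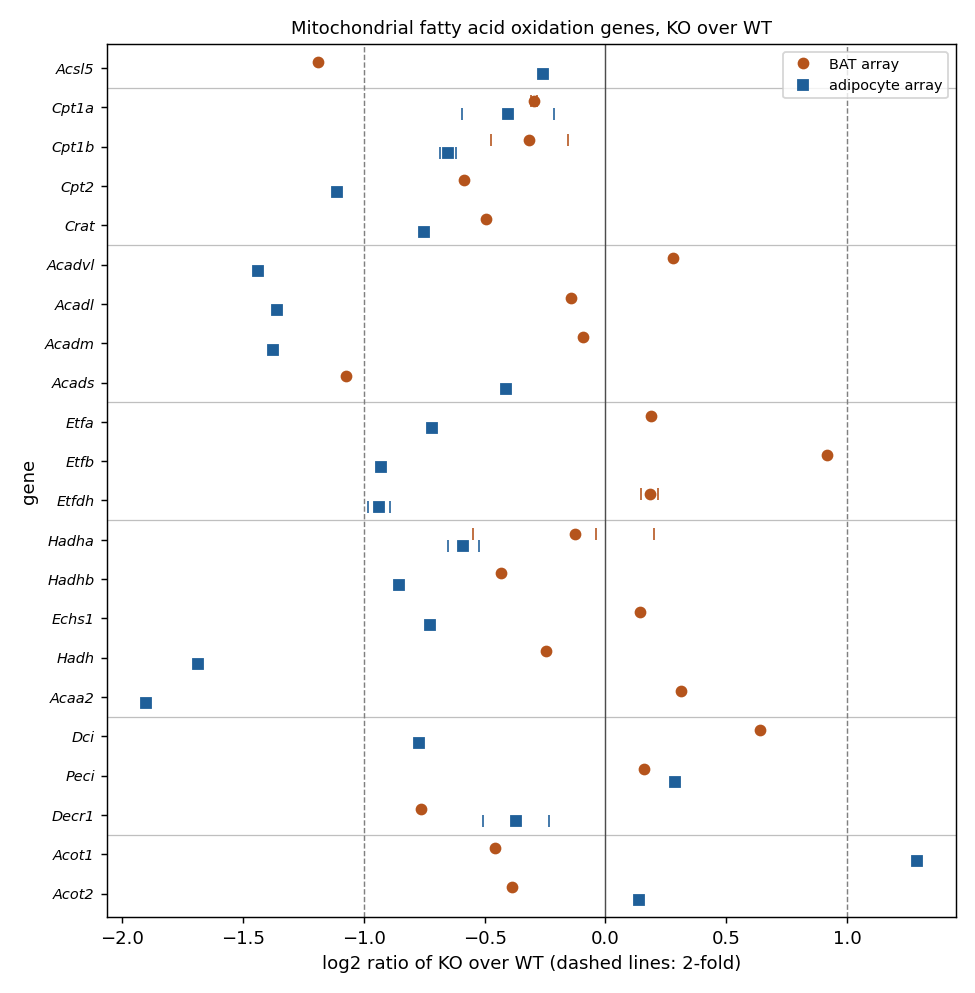
Log2 ratio of KO over WT for the 22 mitochondrial genes (rows, grouped by role from top to bottom: activation, carnitine shuttle, acyl-CoA dehydrogenases, electron transfer, spiral steps, auxiliary enzymes, thioesterases). Circles are the BAT array and squares the adipocyte array, each the mean over kept probes, with short bars for single probes where a gene has several. In adipocytes 6 genes lie past the dashed line at -1 and Acot1 alone past the line at 1, while in BAT only Acsl5 and Acads lie past -1.

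The promoters of 4 of these genes are shown because the mitochondrial genes were lower together in KO culture. They are Hadh, Acadvl and Acadm, the lowest in KO adipocytes among the genes with an entry in the RefSeq promoter table, and Hadhb, which shares its start region with its partner gene Hadha. Each is the 250 bases before the start on the gene's own strand, in build GRCm38.p6. Hadh lies on the minus strand at chr3:131272102-131272351, Acadvl on the minus strand at chr11:70015429-70015678, Acadm on the minus strand at chr3:153944644-153944893 and Hadhb on the plus strand at chr5:30155003-30155252. Capitals mark the nuclear receptor core motif AGGTCA, the GC box GGGCGG and the CCAAT box, on either strand.
Hadh: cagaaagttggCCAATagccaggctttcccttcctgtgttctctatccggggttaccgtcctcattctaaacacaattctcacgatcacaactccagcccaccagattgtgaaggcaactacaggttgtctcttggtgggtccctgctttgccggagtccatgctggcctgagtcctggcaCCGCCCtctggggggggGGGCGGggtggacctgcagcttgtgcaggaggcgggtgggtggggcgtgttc
Acadvl: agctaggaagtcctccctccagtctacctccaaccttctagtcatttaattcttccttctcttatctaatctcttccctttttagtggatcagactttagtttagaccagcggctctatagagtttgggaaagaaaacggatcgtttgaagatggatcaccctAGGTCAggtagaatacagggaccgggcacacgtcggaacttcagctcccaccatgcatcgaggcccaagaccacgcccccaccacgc
Acadm: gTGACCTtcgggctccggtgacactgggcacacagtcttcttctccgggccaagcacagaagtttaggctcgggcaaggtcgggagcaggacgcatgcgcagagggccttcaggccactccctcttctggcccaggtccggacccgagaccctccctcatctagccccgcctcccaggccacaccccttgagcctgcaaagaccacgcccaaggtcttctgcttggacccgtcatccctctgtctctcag
Hadhb: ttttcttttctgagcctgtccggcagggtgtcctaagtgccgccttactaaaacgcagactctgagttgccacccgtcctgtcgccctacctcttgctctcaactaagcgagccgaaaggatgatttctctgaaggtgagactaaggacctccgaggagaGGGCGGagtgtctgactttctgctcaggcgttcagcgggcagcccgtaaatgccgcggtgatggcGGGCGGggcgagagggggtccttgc

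Motifs were searched on both strands from 250 bases before to 50 after the start, in the 37 of the 48 genes with an entry and in all 27025 genes of the table. AGGTCA was found in 6 of the 37 (16.2%, against 18.1% of all genes): Acadm, Acadvl, Cpt1a, Echs1, Scp2 and Phyh. Its direct repeat with 1 base between (AGGTCA, any base, AGGTCA), the form bound by PPAR and RXR, was found in none of the 37 and in 0.0481% of all genes. TCAAGGTCA, the form bound by estrogen-related receptors, which contains AGGTCA, was also found in none, and in 0.466% of all. Both shares of all genes are so low that none among 37 says little. Sites that match less exactly or lie further out were not searched. GGGCGG was found in 27 (73%, against 38.2%) and CCAAT in 16 (43.2%, against 41.1%). The genes of the table were not limited to those measured here, nor matched in base composition. What lies behind the share with GGGCGG was not tested. Hadha and Hadhb, which encode the alpha and beta subunits of the mitochondrial trifunctional protein, run in opposite directions from starts 273 bases apart on chromosome 5. Their searched stretches overlap by 228 bases, so a motif there counts for both genes. Cpt1b, Crat, Acaa2, Decr1, Abcd2, Hsd17b4, Amacr, Pex2 and Pex19 were among the genes with no entry.

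Activation and entry came first in the pathway. Acsl5, which joins long-chain fatty acids to coenzyme A, had a signal of 2270 in KO and 5172 in WT tissue, the largest difference of the 48 genes in BAT (log2 -1.19, 2.28-fold lower in KO). In culture it was close between the genotypes, at 3352 in KO and 4006 in WT adipocytes (-0.26). The value in BAT stayed below 0 under every alternative but was -0.78 with outlier spots left in and -0.63 without loess.

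The 4 genes of the carnitine shuttle were below 0 on both arrays, with a median of -0.70 in adipocytes and -0.40 in BAT, where all 4 turned above 0 without loess. Cpt2, which returns the acyl group to coenzyme A on the inner membrane, had 4675 in KO and 10094 in WT adipocytes (-1.11, 2.16-fold lower) and 37927 in KO and 56840 in WT tissue (-0.58). Crat, the carnitine acetyltransferase, had 2808 in KO and 4726 in WT adipocytes (-0.75) and 30442 in KO and 42854 in WT tissue (-0.49). Both genes were lower in KO in both materials, by more in culture. Cpt1b, the outer-membrane carnitine palmitoyltransferase of muscle and brown fat, had 205 in KO and 321 in WT adipocytes (-0.65), and 26229 in KO and 32610 in WT tissue (-0.31, with its probes at -0.47 and -0.16). Cpt1a, the liver form, had 1242 in KO and 1641 in WT adipocytes (-0.40) and 747 in KO and 917 in WT tissue (-0.30). One of the 2 Cpt1a probes was spotted 10 times on the array and gave -0.59 ± 0.050 in adipocytes (SD over 9 spots) and -0.28 ± 0.061 in BAT (SD over 10 spots). The other Cpt1a probe gave -0.21 in adipocytes, further away than the spread of the spots, and -0.31 in BAT, within it.

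The acyl-CoA dehydrogenases, which open each turn of the spiral and differ in the chain length they take, were the role with the lowest median in culture (-1.37, 4 of 4 below 0). Acadvl, for very long chains, had 13481 in KO and 36497 in WT adipocytes (-1.44, 2.71-fold lower). Acadm, for medium chains, had 12332 in KO and 31998 in WT (-1.38, 2.59-fold lower), and Acadl, for long chains, had 2991 in KO and 7664 in WT (-1.36, 2.56-fold lower). These 3 lay within 0.08 of each other on the log2 scale. Acads, for short chains, stood apart with 715 in KO and 950 in WT adipocytes (-0.41).

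In BAT Acads was the lowest of the 4 and the others lay near 0. It had 6904 in KO and 14535 in WT tissue (-1.07, 2.11-fold lower), a value that was -0.98 with outlier spots left in and -0.46 without loess. Acadl had 42709 in KO and 47123 in WT (-0.14), and Acadm 103835 in KO and 110679 in WT (-0.09). Acadvl had 141921 in KO and 116969 in WT tissue (0.28), which was -0.05 with the log ratios of the scanner software and 1.15 without loess, so its direction in BAT depended on the scaling.

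The 3 genes of electron transfer took opposite sides on the arrays. Etfb, the beta subunit of the flavoprotein that accepts electrons from the dehydrogenases, had 21228 in KO and 40340 in WT adipocytes (-0.93), and 153777 in KO and 81565 in WT tissue (0.91, 1.89-fold higher), the highest ratio of the 48 genes in BAT. Etfa, the alpha subunit, had 16009 in KO and 26349 in WT adipocytes (-0.72) and 69213 in KO and 60676 in WT tissue (0.19, but -0.06 with the log ratios of the scanner software). Etfdh, the dehydrogenase that passes the electrons to ubiquinone, had 2981 in KO and 5703 in WT adipocytes (-0.94) and 15480 in KO and 13629 in WT tissue (0.18). In culture the 3 were within 0.22 of each other, whereas in BAT Etfb lay well above the other two. Etfb and Etfdh kept their signs on both arrays under all 9 alternatives. The dyes were opposite on the 2 arrays, so the Cy5 channel was the higher one for all 3 genes on both. A dye effect and a difference between tissue and culture cannot be told apart in these values.

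**Figure D2:**
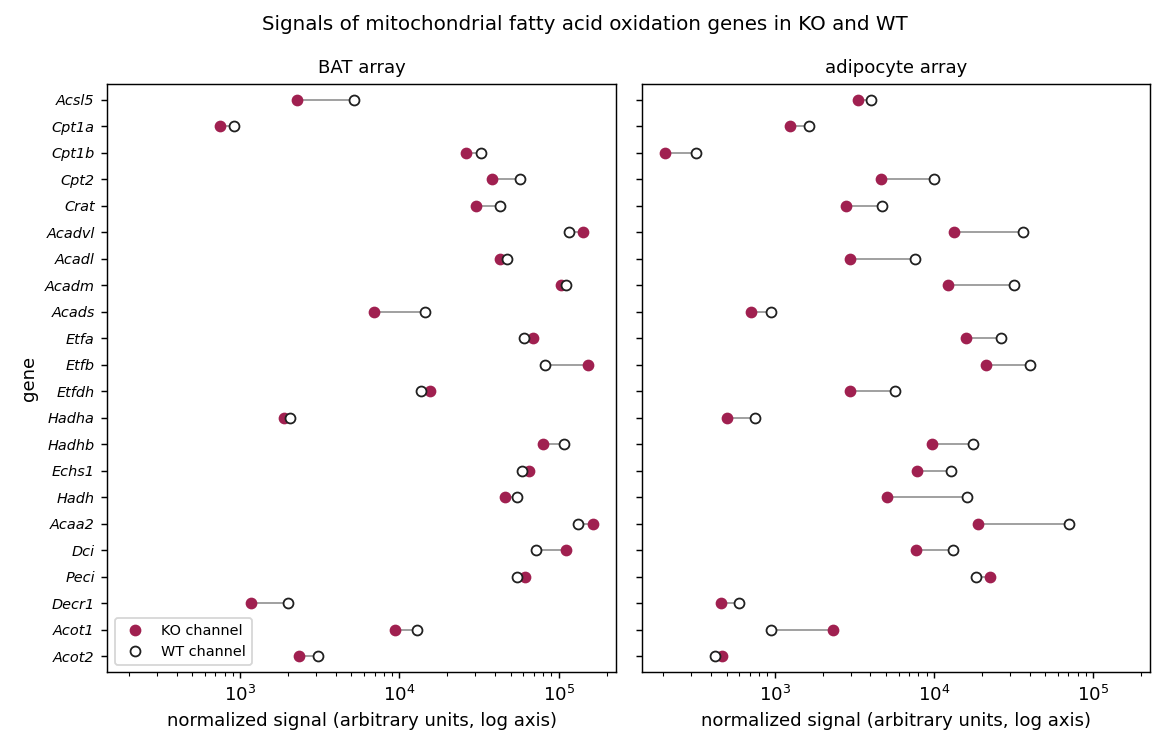
Normalized signals (arbitrary units, log axis) of the 22 mitochondrial genes on the BAT array (left) and the adipocyte array (right). Filled circles are the KO channel and open circles the WT channel, joined for each gene, and levels of different genes are not comparable because they come from different probes. In adipocytes KO lies left of WT for 19 of 22 genes, and in BAT for 14 of 22.

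All 5 genes of the remaining spiral steps were at least 1.5-fold lower in KO adipocytes, against 9.58% of all genes, with a median of -0.85. Acaa2, a thiolase that releases acetyl-CoA, was the lowest of the 48 genes, with 18873 in KO and 70407 in WT adipocytes (-1.90, 3.73-fold lower). Its probe was spotted 10 times and the ratio varied by an SD of 0.11 over 10 spots. Hadh, the dehydrogenase for medium- and short-chain hydroxyacyl-CoA, was next lowest, with 5054 in KO and 16258 in WT adipocytes (-1.69, 3.22-fold lower). Hadhb had 9774 in KO and 17639 in WT (-0.85), and Echs1, the short-chain enoyl-CoA hydratase, 7790 in KO and 12892 in WT (-0.73). Hadha was at -0.59 (500 in KO and 752 in WT), with its 2 kept probes at -0.65 and -0.52. The differences in culture were thus largest for Acaa2 and Hadh and smaller for Hadhb, Echs1 and Hadha. These are values of single genes and do not rank the steps of the spiral.

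In BAT the same 5 genes lay on both sides of 0. Acaa2 had 164248 in KO and 132235 in WT tissue (0.31 with an SD of 0.096 over 8 spots), which was -0.02 with the log ratios of the scanner software. Hadhb had 80100 in KO and 108054 in WT (-0.43), Hadh 45933 in KO and 54421 in WT (-0.24), and Echs1 64717 in KO and 58652 in WT (0.14). Hadha had 1894 in KO and 2069 in WT tissue as a mean (-0.13), but its 3 probes disagreed in sign. The probe of its RefSeq transcript had 12810 in KO and 18710 in WT tissue (-0.55), while 2 probes of other cDNA entries had -0.04 and 0.20. The value of the RefSeq probe of Hadha was close to that of Hadhb in BAT (-0.43), and in adipocytes they had -0.52 and -0.85.

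Of the auxiliary enzymes that bring double bonds of unsaturated acids into a form the spiral can use, Dci (an enoyl-CoA isomerase) was again on opposite sides, with 7710 in KO and 13150 in WT adipocytes (-0.77) and 111595 in KO and 71733 in WT tissue (0.64, 1.56-fold higher). Peci, a second isomerase, was slightly higher in KO on both arrays, with 22478 in KO and 18404 in WT adipocytes (0.29, but -0.15 without loess) and 61195 in KO and 54723 in WT tissue (0.16). Decr1, the dienoyl-CoA reductase, had 463 in KO and 599 in WT adipocytes (-0.37) and 1172 in KO and 1990 in WT tissue (-0.76). The value in tissue is from 1 probe, because the other carried an outlier flag on that array. Dci and Decr1 kept their signs on both arrays under all alternatives.

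The thioesterases Acot1 (cytosolic) and Acot2 (mitochondrial) split acyl-CoA back into free acid and coenzyme A. Acot1 stood apart from the other genes in culture. It had 2325 in KO and 952 in WT adipocytes (1.29, 2.44-fold higher), the highest ratio of the 48, and 0.86 without loess. In BAT it had 9342 in KO and 12823 in WT (-0.46). Acot2 had 467 in KO and 423 in WT adipocytes (0.14, but -0.24 without loess) and 2356 in KO and 3079 in WT tissue (-0.39). The 2 genes are close copies, and whether their probes read each other's transcripts was not checked.

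**Figure D3:**
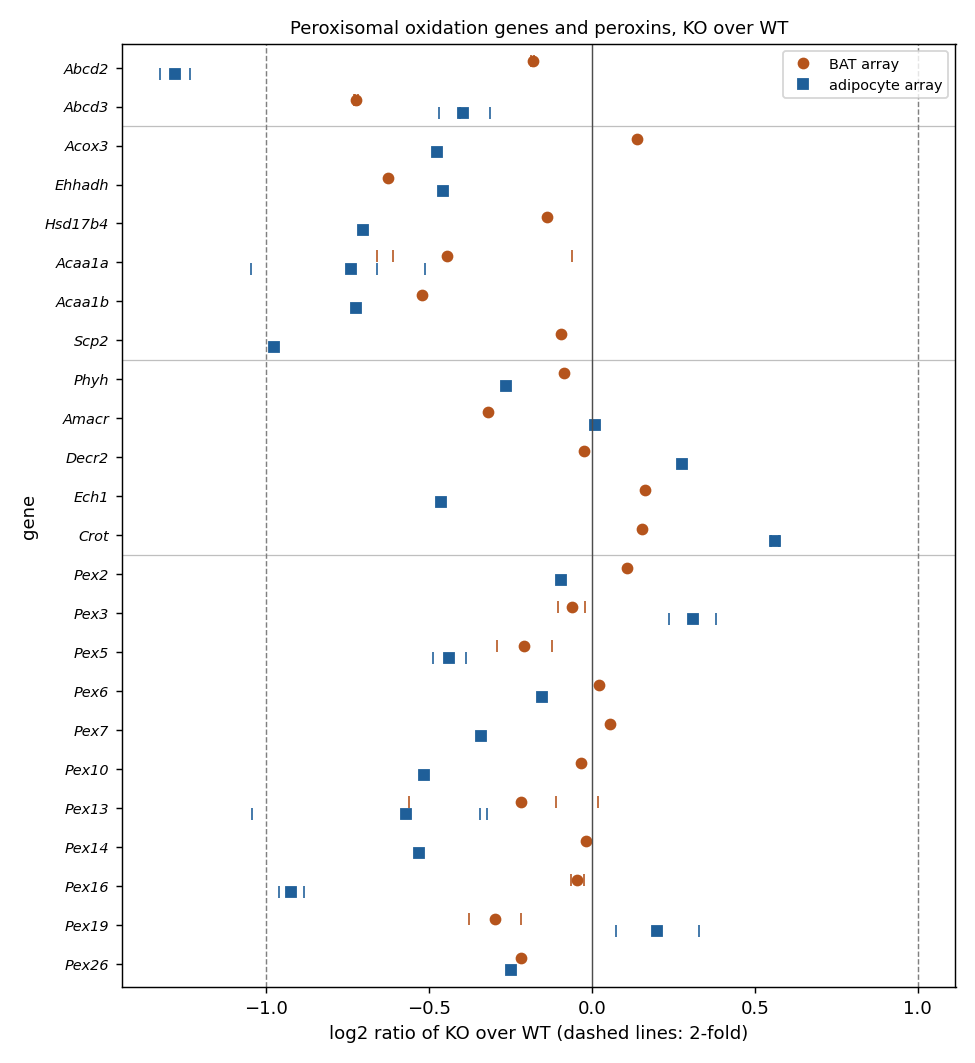
Log2 ratio of KO over WT for 24 of the 26 peroxisomal genes (rows, from top to bottom: transporters, oxidation enzymes, branched-chain and auxiliary enzymes, peroxins). Circles are the BAT array and squares the adipocyte array, each the mean over kept probes, with short bars for single probes where a gene has several. Abcd2 in adipocytes is the only gene mean past a dashed 2-fold line. In BAT the genes named as peroxins lie between -0.30 and 0.11, the upper end being the probe named Pex2, which belongs to another gene.

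The peroxisomal enzymes and transporters were lower in KO adipocytes by less than the mitochondrial genes, with a median of -0.46 over 13 genes, and 5 of them (38.5%, against 9.58% of all genes) were at least 1.5-fold lower. Abcd2, a transporter of very long-chain acyl-CoA, had 108 in KO and 262 in WT adipocytes (-1.28, 2.43-fold lower, with probes at -1.33 and -1.23, and -2.24 with the log ratios of the scanner software), and 229 in KO and 260 in WT tissue (-0.18). Abcd3, a transporter of long and branched acids (PMP70), had 1517 in KO and 1994 in WT adipocytes (-0.39), and 1549 in KO and 2561 in WT tissue (-0.73, with 3 probes between -0.73 and -0.72). The 2 transporters were thus both below 0 on both arrays, with Abcd2 the lower one in culture and Abcd3 the lower one in BAT.

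All 6 genes of the peroxisomal spiral were below 0 in adipocytes under every alternative (median -0.71). Scp2, whose longer product is a thiolase for branched chains, had 10944 in KO and 21518 in WT adipocytes (-0.98) and 33163 in KO and 35404 in WT tissue (-0.09). The thiolases Acaa1a and Acaa1b had -0.74 (4640 in KO and 7749 in WT) and -0.72 (2204 in KO and 3639 in WT) in adipocytes, and -0.44 (10970 in KO and 14924 in WT) and -0.52 (5613 in KO and 8056 in WT) in BAT. They are near-identical copies, so neither can be read apart from the other, and the 3 probes of Acaa1a ran from -1.05 to -0.51 in adipocytes. Hsd17b4, the D-bifunctional protein, had 6746 in KO and 10985 in WT adipocytes (-0.70) and 28144 in KO and 30943 in WT tissue (-0.14). Ehhadh, the L-bifunctional protein, had 347 in KO and 477 in WT adipocytes (-0.46), and 14943 in KO and 23051 in WT tissue (-0.63, 1.54-fold lower). Acox3, an oxidase for branched acids, had -0.48 in adipocytes (1298 in KO and 1806 in WT) and 0.14 in BAT (6221 in KO and 5647 in WT). Ehhadh and Abcd3 were the 2 of 26 peroxisomal genes at least 1.5-fold lower in BAT (7.69%, near the 7.11% of all genes). Without loess Ehhadh was at 0.04 there.

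The auxiliary enzymes varied more in sign. Crot, which makes carnitine esters of the shortened acids for export, had 2555 in KO and 1730 in WT adipocytes (0.56, 1.48-fold higher, with probes at 0.55 and 0.57), and 189 in KO and 170 in WT tissue (0.15, from 1 probe, the other carrying an outlier flag). Crot and Peci were the only genes of the 48 above 0 on both arrays. Decr2, the peroxisomal dienoyl-CoA reductase, had 914 in KO and 754 in WT adipocytes (0.28, but -0.14 without loess) and 5451 in KO and 5543 in WT tissue (-0.02). Ech1, a dienoyl-CoA isomerase, had 5315 in KO and 7328 in WT adipocytes (-0.46) and 55647 in KO and 49707 in WT tissue (0.16). Phyh, which starts alpha-oxidation of phytanic acid, had 3738 in KO and 4490 in WT adipocytes (-0.26) and -0.09 in BAT. Amacr, the racemase for branched acids, had 3876 in KO and 3854 in WT adipocytes (0.01) and 6935 in KO and 8644 in WT tissue (-0.32, but 0.28 without loess).

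The 13 genes named as peroxins lay close to 0 in BAT, between -0.30 (Pex19) and 0.11 (Pex2), with a median of -0.03. The probe named Pex2 belongs to another gene, as given below. The true Pex2, named Pxmp3 on the array and outside the 13, had -0.50 in BAT. In adipocytes the median of the 13 was -0.25, with 10 of 13 below 0. Pex16, which takes part in placing membrane proteins of the peroxisome, was the lowest, with 1172 in KO and 2223 in WT adipocytes (-0.92, with probes at -0.96 and -0.88) and -0.04 in BAT. It alone of the 13 was 1.5-fold lower in adipocytes (7.69%, below the 9.58% of all genes). Also below -0.4 in culture were the docking proteins Pex13 (-0.57, with 3 probes between -1.04 and -0.32) and Pex14 (-0.53). So were the ubiquitin ligase subunit Pex10 (-0.52) and the receptor Pex5 (-0.44). These act in import of matrix proteins, but so do peroxins that lay nearer 0 in culture. Among them were Pex7 (-0.34), Pex26, a membrane anchor of the import machinery (-0.25), and Pex6 (-0.15). The true Pex2, also a ligase subunit, had 0.51.

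Other peroxins differed in sign between the arrays, by small amounts. Pex7, a second import receptor, had 2418 in KO and 3060 in WT adipocytes (-0.34) and 5776 in KO and 5556 in WT tissue (0.06). Pex6, an ATPase that recycles import receptors, had 1548 in KO and 1723 in WT adipocytes (-0.15) and 16885 in KO and 16642 in WT tissue (0.02). Pex3 and Pex19 were above 0 in culture but below 0 there without loess. Pex3, the membrane receptor for new membrane proteins, had 1366 in KO and 1103 in WT adipocytes (0.31) and 1648 in KO and 1721 in WT tissue (-0.06). Pex19, which carries those proteins to it, had 2181 in KO and 1898 in WT adipocytes (0.20) and 2968 in KO and 3646 in WT tissue (-0.30).

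Some peroxin values rest on probes that disagree. Pex13 had 3488 in KO and 4057 in WT tissue (-0.22), where its 3 probes ran from -0.56 to 0.02. The probe that the array names Pex2 carries an accession that RefSeq now gives to Pex5l, a different gene, and the true Pex2, a ligase subunit, is named Pxmp3 on the array. Under the name Pex2 the values were 189 in KO and 202 in WT adipocytes (-0.10) and 158 in KO and 147 in WT tissue (0.11). Under Pxmp3 they were 2616 in KO and 1836 in WT adipocytes (0.51) and 814 in KO and 1148 in WT tissue (-0.50). Of the 71 probes it was the only one whose accession led to another gene, 63 led to the named gene and 7 had accessions outside the RefSeq table.

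**Figure D4:**
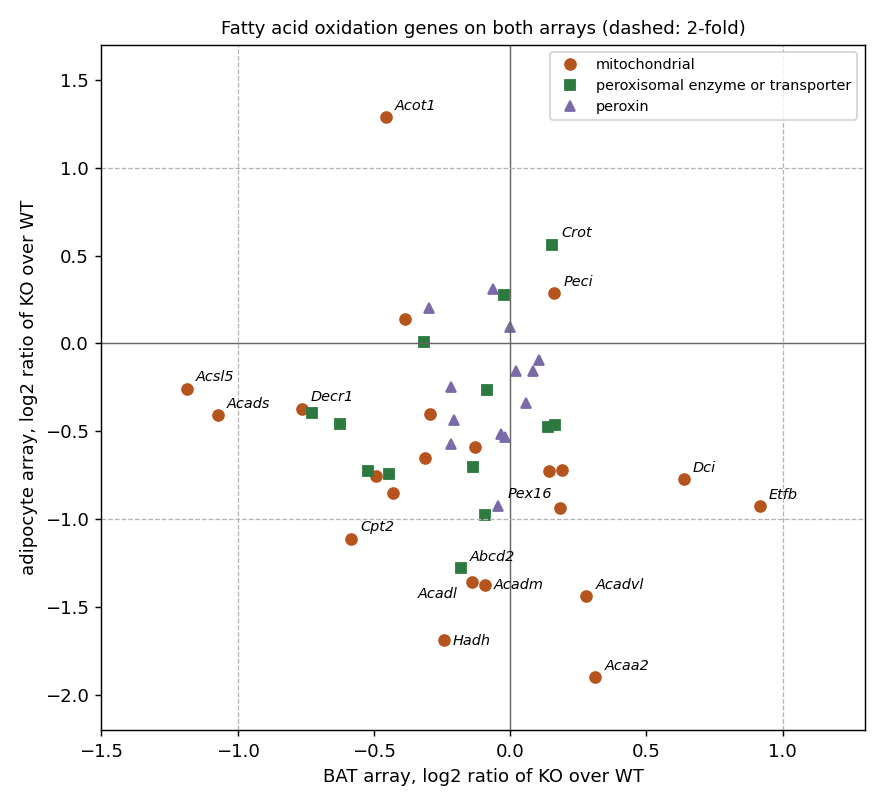
Log2 ratio of KO over WT on the BAT array (horizontal axis) and on the adipocyte array (vertical axis) for the 48 genes, with circles for mitochondrial genes, squares for peroxisomal enzymes and transporters and triangles for peroxins, and dashed lines at 2-fold. Most points lie below the horizontal line at 0, and the genes lowest in adipocytes (Acaa2, Hadh, Acadvl) lie between -0.24 and 0.31 in BAT, while Acsl5 and Acads are lowest in BAT.

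Set against each other, the arrays did not order the genes alike. Of the 48 genes 26 were below 0 on both arrays, 2 above on both, 13 above 0 in BAT and below in adipocytes, and 7 the other way round. Across the 22 mitochondrial genes the ratios of the arrays had a Pearson r of -0.328 and a Spearman rho of -0.462, and across the 26 peroxisomal genes 0.255 and 0.287. These describe genes, which are not independent replicates, and each point rests on 1 array. KO carried opposite dyes on the 2 arrays, so opposite signs mean that the same dye was brighter on both. Dye effects on single genes and differences between tissue and culture cannot be told apart in these values. None of the 48 was past 2-fold on both arrays, which says little because only 2 were past it in BAT. No counts or correlations of this kind over all genes are given beside these. The ratio was lower on the adipocyte array for 34 of 48 genes, among them 16 of the 22 mitochondrial ones.

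Levels of the same probe also differed between the arrays themselves. In the WT channels the mitochondrial genes were higher in tissue than in culture for 21 of 22, with a median log2 ratio of 1.99, while the 14161 genes measured on both arrays had -0.09. At least 4-fold higher in tissue were 11 of the 22 (50%), against 5.91% of all genes. The peroxisomal enzymes and transporters had a median of 1.17 and the peroxins 0.94. In the KO channels the medians were 3.04, 1.60 and 1.26. Tissue and culture were on separate arrays with opposite dyes, so material, array and dye cannot be told apart in these values. Cpt1b was 102-fold higher in WT tissue than in WT culture, and Ehhadh 48.4-fold. Cpt1a, by contrast, was 1.79-fold and Crot 4.11-fold higher in WT culture.

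Other genes of the same pathways and of the steps around them were counted from a longer list. The 20 further genes of mitochondrial fatty acid use and its control measured in adipocytes had a median of -0.26, and none lay 2-fold or more above WT in KO. Below WT by 2-fold or more lay 3 of the 20 (15%, against 4.17% of all genes). They were Acsl1, the main acyl-CoA synthetase of fat cells (749 in KO and 10012 in WT, -3.74), Dbi, an acyl-CoA binding protein (23543 in KO and 68710 in WT, -1.55), and Acaca, the cytosolic carboxylase of fatty acid synthesis, whose product malonyl-CoA blocks entry into mitochondria (164 in KO and 343 in WT, -1.06). The 4 probes of Acaca ran from -1.89 to -0.68. Acacb fell just short of 2-fold (143 in KO and 285 in WT, -0.999), with its 2 probes at -1.97 and -0.03. Slc25a20, the carnitine-acylcarnitine carrier that works between Cpt1 and Cpt2, had -0.17. In BAT 1 of 20 (5%, against 2.42% of all genes) was 2-fold lower, Acsl3 (709 in KO and 1428 in WT, -1.01). At 1.5-fold 8 were lower there (40%, against 7.11% of all genes), and the median was -0.41. Slc25a20 had 11818 in KO and 19255 in WT tissue (-0.70) and Acsl1 18135 in KO and 29883 in WT (-0.72).

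Among further peroxisomal genes 4 of 27 (14.8%, against 4.17% of all genes) lay 2-fold or more below WT in KO adipocytes. None lay as far above, and the median was -0.08. Pex11a, a peroxin that promotes division of the organelle and is left out of the 13 by its letter, had 604 in KO and 3740 in WT adipocytes (-2.63), and 33539 in KO and 26324 in WT tissue (0.35). Its relative Pex11c was near 0 in adipocytes (-0.16). The other 3 were catalase, Cat, which removes hydrogen peroxide (3373 in KO and 15821 in WT, -2.23), Gnpat, the first enzyme of ether lipid synthesis (8411 in KO and 21219 in WT, -1.34), and Idh1 (3113 in KO and 6266 in WT, -1.01). In BAT 1 of 31 (3.23%, against 2.42% of all genes) was 2-fold lower, the thioesterase Acot5 (225 in KO and 985 in WT, -2.13). Cat was higher in KO there (49389 in KO and 30239 in WT, 0.71).

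A list of regulators held receptors and coactivators known to drive these genes, and Pdk4, a kinase that restrains pyruvate oxidation. Of 9 measured in adipocytes all were below 0 and 4 (44.4%, against 4.17% of all genes) at least 2-fold lower. Pparg among them is also counted with the brown adipocyte markers. Pparg had 1927 in KO and 21639 in WT (-3.49), the coactivators Ppargc1b 179 in KO and 1093 in WT (-2.61) and Ppargc1a 141 in KO and 700 in WT (-2.31), and Ppara, the receptor for fatty acids in oxidative tissues, 121 in KO and 256 in WT (-1.08). In BAT none of 10 was past 2-fold, against 2.42% of all genes lower and 0.816% higher, with a median of 0.14. Pparg had 0.82 and Ppara 0.24 there, while Ppargc1a had -0.35, Ppargc1b -0.14 and the estrogen-related receptor gene Esrra -0.41.

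Markers of the cells in each sample differed beside these genes. In adipocytes 10 of 11 brown adipocyte markers were below 0, with a median of -3.49, so the oxidation genes differed by less than the markers of the fat cells themselves. The macrophage markers there had a median of -1.76, and those of preadipocytes and fibroblasts 0.21, with a summed signal of 201844 in KO and 157989 in WT. In BAT the brown adipocyte markers had a median of 0.03 and the skeletal muscle markers -2.39. Of the 11 brown adipocyte markers 3 (27.3%, against 2.42% of all genes) were at least 2-fold lower there. They were Elovl3 (-2.14), Ucp1 (50448 in KO and 180088 in WT, -1.84) and Dio2 (-1.07). At least 2-fold higher were 2, Cfd (1.78) and Cidea (1.01), against 0.816% of all genes. No macrophage marker was past 2-fold in BAT, and the median of the 11 was 0.01. Endothelial markers had a median of -0.36 in BAT, with 5 of 6 below 0, and erythroid markers -0.37, with 4 of 4 below 0, and none of either was past 2-fold. Muscle expresses most of the mitochondrial genes too, and the part of muscle, fat cells, macrophages, endothelium or blood in the values given here was not tested.

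**Figure D5:**
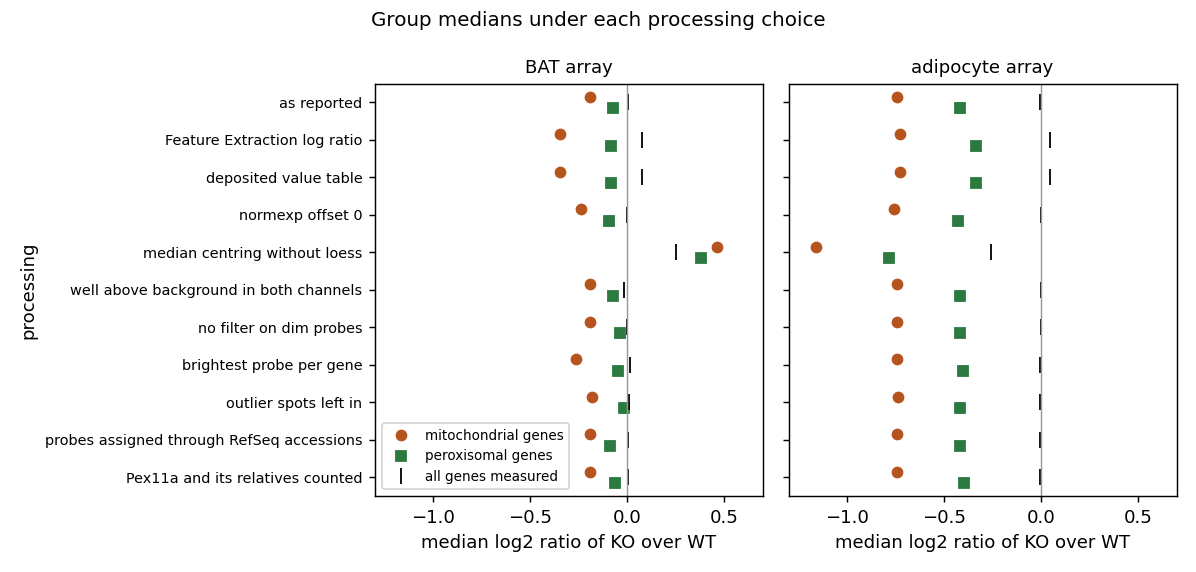
Median log2 ratio of KO over WT of the mitochondrial genes (circles) and the peroxisomal genes (squares) under each processing choice (rows), with black bars for the median of all genes measured, on the BAT array (left) and the adipocyte array (right). In adipocytes both medians lie below 0 and below the bar in every row, and in BAT both lie above 0 when loess is left out.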

How the data were processed

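Total RNA was extracted with Trizol and amplified and labelled with an Agilent linear amplification kit, per the labels' protocols. Each spot's intensity (mean and local background, per dye) was read by the authors with Agilent Feature Extraction 9.5.1.1, protocol GE2-v5_95_Feb07, per the file headers. The deposited files also give the software's log10 ratio, red over green. Its values stand again, as log10 ratios of KO over WT for both arrays, in a table that the authors deposited. 

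Intensities were corrected with limma 3.58.1 in R 4.3.3 (normexp, offset 50, control spots included) after leaving out spots with an outlier flag (1215 gene spots in BAT and 203 in adipocytes), and normalized by loess with weight 0 for controls. Channel signals were scaled between arrays with Aquantile. Probes above background in neither channel were left out, and a gene is the mean over its kept probes. All log2 ratios are KO over WT and were computed here from the deposited intensities. The steps were tested on simulated data. Of 41174 probes, 32294 carried a name matching RefSeq (GRCm38.p6), giving 19500 genes. Promoter sequences are from RefSeq, of the same build. With 1 array per comparison the number of arrays limits the precision, and no test was run.

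All members entered the counts and medians, and a few genes are not reported singly here. Members past 2-fold, the highest and lowest 6, those of opposite sign and those with disagreeing probes were given with both signals. The members, gene lists and markers were chosen with earlier results of these data known. The 9 alternatives tried were the software's log ratio, the deposited table, offset 0, no loess, both channels above background, no brightness filter, the brightest probe, outlier spots left in, and RefSeq accessions for names. Counting Pex11a and its relatives as members was added after seeing the data, and the sex-linked genes were named after their values were seen.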

Additional observations from a re-analysis of the deposited data

Results flagged for a closer look

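Of the 48 genes, 6 lay on opposite sides of 0 on the 2 arrays, each by more than 2 times the SD between repeated spots. The difference between the arrays was not tested, because each rests on 1 array. KO carried Cy5 on the BAT array and Cy3 on the adipocyte array, so opposite signs mean that the same dye was brighter on both. A dye effect on the gene and a difference between tissue and culture therefore cannot be told apart here. As the log2 ratio of KO over WT in adipocytes minus that in BAT, it was -2.21 for the thiolase Acaa2 (-1.90 and 0.31), -1.84 for Etfb (-0.93 and 0.91), -1.72 for Acadvl (-1.44 and 0.28) and -1.41 for Dci (-0.77 and 0.64). It was 1.74 for the thioesterase Acot1 (1.29 and -0.46) and 0.50 for Pex19 (0.20 and -0.30). The BAT values of Acaa2 and Acadvl were -0.02 and -0.05 with the scanner software's ratios, and without loess Acot1 was at 0.16 and Pex19 at 0.25 in BAT and Pex19 at -0.22 in adipocytes.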

How the results depend on the processing

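Of the group medians and counts under alternatives, 69 values stayed within the spot SD or within 1.5 times the reported count, 9 moved further and 2 changed sign. Several of these alternatives overlap and are not independent checks. In adipocytes both medians stayed below 0 under all of them. Without loess the mitochondrial median was 0.46 in BAT (reported -0.19) and -1.16 in adipocytes (-0.74), and the peroxisomal median 0.38 in BAT (-0.07) and -0.78 in adipocytes (-0.42). All genes had 0.25 and -0.26 there. Relative to them the mitochondrial median was 0.21 in BAT and -0.90 in adipocytes, and the peroxisomal one 0.13 and -0.53. Without loess 19 genes were 2-fold lower in adipocytes (reported 7) and 0 higher (1), and in BAT 0 were lower (2) and 4 higher (0). The mitochondrial median in BAT was -0.35 with the software's log ratios and with the deposited table. With outlier spots left in, 0 genes were 2-fold lower in BAT, and of all genes 98 were lower and 39 higher (reported 377 and 127). All genes past 2-fold in BAT numbered 946 lower and 1392 higher with the software's ratios, 946 and 1388 in the deposited table, 830 and 383 with offset 0 and 407 and 674 without loess. In adipocytes (reported 629 and 376) they numbered 952 and 869 with the software's ratios, 950 and 867 in the table, 836 and 614 with offset 0 and 1244 and 192 without loess. Of the single-gene values 666 stayed within the spot SD and 198 moved further. The cause was not tested. No paired analysis was possible because each comparison had 1 array. Of the probes, 1 each of Pex3 and Scp2 on both arrays and 1 of Hadha in adipocytes were not above background.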
